A study of Mus musculus with 12 samples.

Results

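The 7 genes described here, *Lgr5*, *Axin2*, *Sox9*, *Cd44*, *Olfm4*, *Aqp5* and *Lrig1*, are in general use as markers of stem or progenitor cells of the stomach and intestine. They were chosen by symbol from the 18926 genes in the deposited tables, and all 7 were found and passed the filter on low counts. RNA was from S1 cells, a mouse gastric cancer line from a ChetPS mouse, which carries conditional alleles of *Cdh1*, *Trp53* and *Smad4*. According to the paper the cells were grown as tumorspheres, the floating clusters that single cells form in low-attachment plates in medium with EGF, whereas the labels give a monolayer cell type together with a low-attachment protocol. By the labels, double-KO (*Rasa1* and *Nf2*), *Rasa1*-KO, *Nf2*-KO and control cells gave 3 libraries each, all made with lentiviral guide RNA and antibiotic selection, and control cells carried a non-targeting guide. The paper describes the RNA-seq replicates as technical, and neither separate cultures nor separate clones are stated, so SDs and p-values describe only the spread between libraries.

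Stem cells of the gastric and intestinal glands depend on Wnt ligands, which stabilise β-catenin and let it activate genes together with TCF/LEF factors. *Lgr5* encodes a receptor for R-spondins, secreted proteins that strengthen the Wnt signal by removing the ubiquitin ligases RNF43 and ZNRF3 from the cell surface. *Axin2* encodes a scaffold of the complex that degrades β-catenin and is a feedback target of the same pathway. *Nf2* encodes Merlin, an upstream activator of the Hippo kinases that restrain YAP and TAZ, and *Rasa1* encodes a GTPase-activating protein that switches RAS off.

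The mRNA of *Nf2* went against the labels of 2 of the 4 groups, while that of *Rasa1* was low in both groups labelled as lacking it. *Nf2* was at 55.4, 58.1 and 61.0 counts per 1000000 (CPM, scaled by TMM factors) in control, at 13.2, 13.2 and 14.3 in *Nf2*-KO, at 11.6, 11.9 and 12.1 in the *Rasa1*-KO-labelled libraries, and at 56.4, 57.6 and 62.6 in the double-KO-labelled libraries. Thus *Nf2* mRNA was at the control level in libraries labelled as lacking it and low in *Rasa1*-KO-labelled libraries. *Rasa1* was between 60.5 and 78.5 CPM in control, between 97.2 and 101 in *Nf2*-KO, between 30.4 and 34.5 in the *Rasa1*-KO-labelled libraries, and between 17.7 and 23.3 in the double-KO-labelled ones. The names of the deposited tables carry the opposite assignment, with double-KO for the 3 *Rasa1*-KO-labelled libraries and *Rasa1*-KO for the 3 labelled double-KO. Groups are therefore called by their labels below, and under the table names these 2 groups are exchanged. The control libraries also lay further from each other than those of the other groups, and leaving out both libraries whose tables carry no number (1 control and 1 labelled double-KO) is given beside the counts below.

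**Figure D1:**
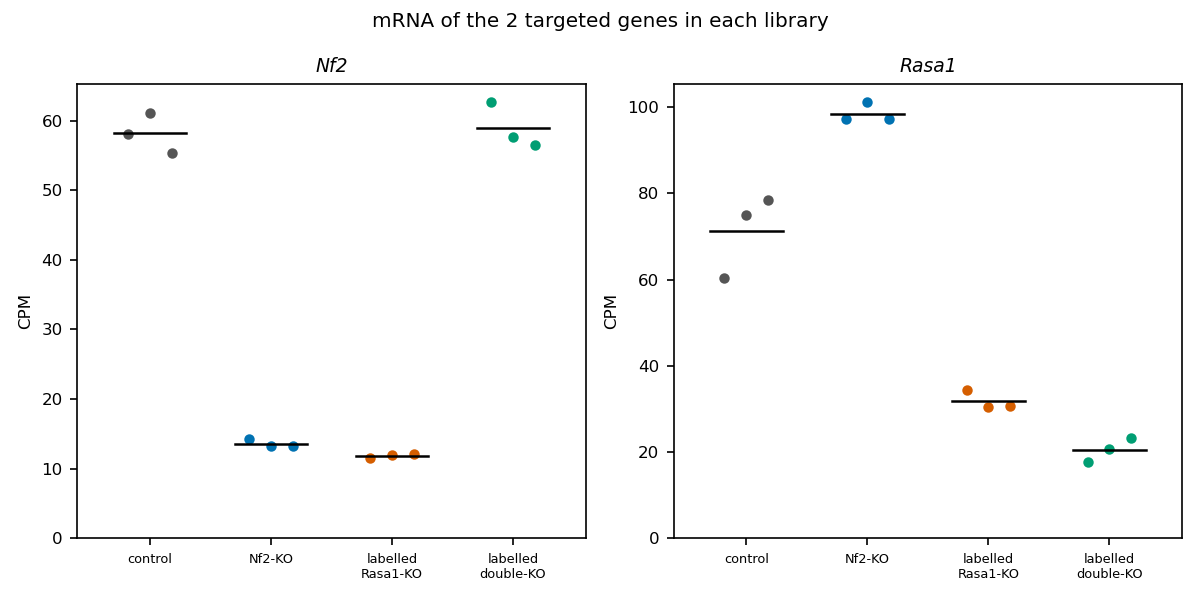
CPM of *Nf2* (left) and *Rasa1* (right) in each library, with a point for a library and a line for the mean of 3 libraries. *Nf2* is low in *Nf2*-KO and in the *Rasa1*-KO-labelled libraries (11.6 to 14.3 CPM) and at the control level in the double-KO-labelled ones, and *Rasa1* is below the control in both sets labelled as lacking it.

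Against control, *Olfm4*, *Cd44*, *Lgr5* and *Sox9* fell and *Aqp5* rose in *Nf2*-KO, which makes 5 of 7 genes at an adjusted p under 0.05 (edgeR quasi-likelihood test), where 42.5% of all 18053 genes tested were called. The 4 that fell stand beside 22.1% of all genes called lower and the 1 that rose beside 20.4% called higher. In the *Rasa1*-KO-labelled libraries, *Olfm4*, *Cd44*, *Lgr5*, *Axin2* and *Sox9* fell and *Aqp5* rose, and 6 of 7 were called where 41.7% of all genes were (22.1% lower, 19.6% higher). In the double-KO-labelled libraries only *Olfm4* was called, and it fell, where 6.39% of all genes were called and 2.42% were lower. With a replicate block by the numbers in the table names, which these libraries share with control, it was again 1 gene, where 13.8% of all genes were called. Leaving out the control library whose table has no number brought the count to 3, with *Cd44* and *Sox9*. The share of all genes called in that fit was not counted. With over 2 in 5 genes called in the first 2 comparisons, the counts by themselves set little apart, and the sizes differ widely: by absolute log2 fold change in *Nf2*-KO, *Olfm4* was number 3 and *Aqp5* number 292 of 18053 genes, while *Lrig1* was number 16171. The rank of *Olfm4* rests on 4 to 8 counts per library in *Nf2*-KO, and its size depends on the scale (-2.43 with log2(FPKM + 1)). Genes with a count of 0 in any library are not in the tables and were not ranked. With a change of 3-fold or more and an unadjusted p under 0.05, the rule of the study, 2 of the 7 genes were called in *Nf2*-KO (*Olfm4* and *Aqp5*) beside 11.4% of all genes, 3 in the *Rasa1*-KO-labelled libraries (with *Cd44*) beside 9.26%, and 1 in the double-KO-labelled ones (*Olfm4*) beside 2.02%. All 3 comparisons use the same control libraries. Without both libraries whose tables carry no number, 7, 6 and 2 of the 7 genes were called, where 66.8%, 65.8% and 29.8% of all genes were.

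**Figure D2:**
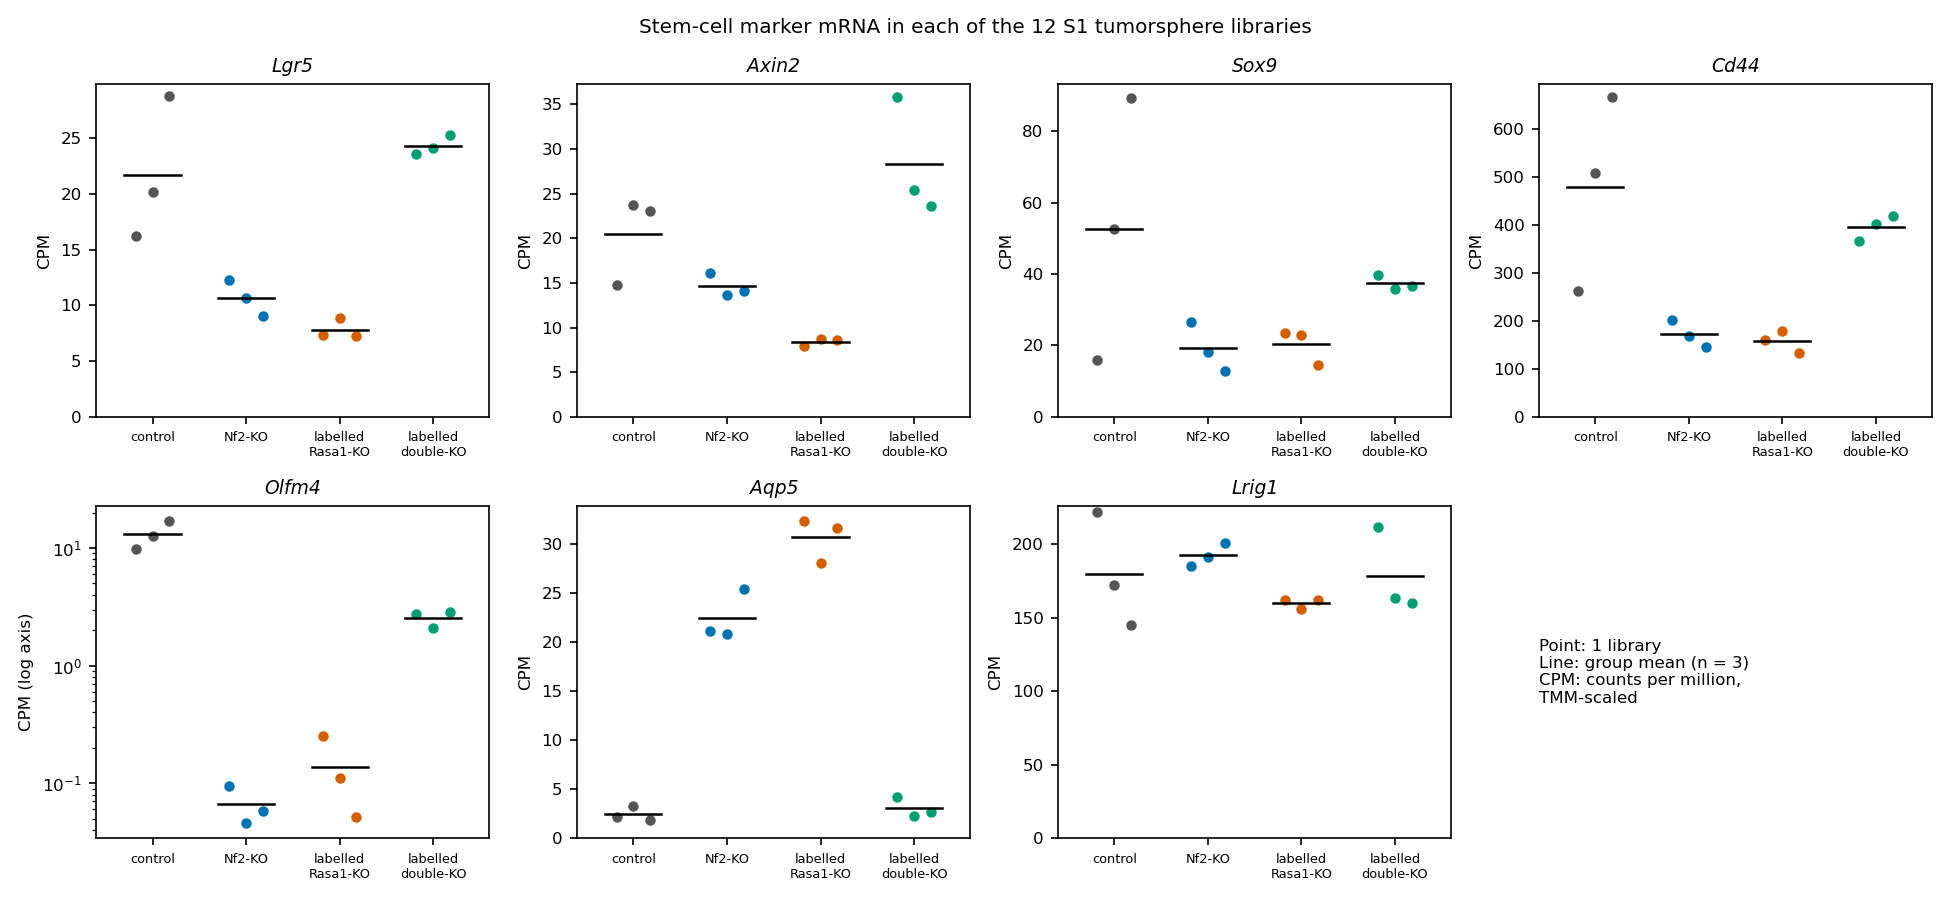
CPM of the 7 genes in each of the 12 libraries, with a log axis for *Olfm4* only. Points are libraries and lines are means of 3. *Olfm4* reaches at most 0.25 CPM in *Nf2*-KO and in the *Rasa1*-KO-labelled libraries against at least 9.74 in control, *Aqp5* is at 20.8 CPM or more in the same libraries against at most 3.29 in control, and each knockout group overlaps control for *Lrig1*.

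*Lgr5* lies on chromosome 10 (GRCm38, 115450314 to 115587780). It was at 16.2, 20.2 and 28.7 CPM in control, at 9.04, 10.6 and 12.3 in *Nf2*-KO, at 7.25, 7.36 and 8.87 in the *Rasa1*-KO-labelled libraries, and at 23.6, 24.1 and 25.3 in the double-KO-labelled ones. All libraries of the first 2 knockout groups lay below all control libraries, and the double-KO-labelled ones lay within the control range. In *Nf2*-KO the log2 level of *Lgr5* fell by 1.03 (SE 0.19, edgeR adjusted p = 0.0013), and it fell by 1.47 in the *Rasa1*-KO-labelled libraries (SE 0.20, adjusted p = 0.00014). The difference of the double-KO-labelled libraries from control was 0.17 (95% interval -0.25 to 0.58), which was not called. In the order of the 4 groups, only the step from control to *Nf2*-KO was called, since *Nf2*-KO and the *Rasa1*-KO-labelled libraries differed by 0.44 (SE 0.19, adjusted p = 0.29). In bulk RNA, fewer cells of a type and less RNA per cell cannot be told apart, here and for each gene below. The genes whose log2 CPM followed *Lgr5* most closely over the 12 libraries were *Galnt7* (Pearson r = 0.987) and *Ammecr1* (r = 0.984), where the libraries share groups and depth and the values are a description.

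*Axin2* (chromosome 11, 108917828 to 108950783) separated the 2 groups with low *Nf2*. It was at 14.8, 23.0 and 23.7 CPM in control, at 13.7, 14.1 and 16.1 in *Nf2*-KO, at 7.99, 8.60 and 8.71 in the *Rasa1*-KO-labelled libraries, and at 23.6, 25.5 and 35.8 in the double-KO-labelled ones. The *Nf2*-KO libraries overlapped the lowest control library, whereas all *Rasa1*-KO-labelled libraries lay below both groups. *Axin2* fell by 1.28 in the *Rasa1*-KO-labelled libraries (SE 0.20, edgeR adjusted p = 0.00041). In *Nf2*-KO the log2 difference from control was -0.49 (95% interval -0.91 to -0.06, adjusted p = 0.063), and without the control library whose table has no number it was -0.67 and called. *Axin2* was the only one of the 7 genes called between *Nf2*-KO and the *Rasa1*-KO-labelled libraries, at 0.80 higher in *Nf2*-KO (SE 0.20, adjusted p = 0.049), where 3.62% of all genes were called. *Stat3*, which encodes a cytokine-activated transcription factor, followed *Axin2* most closely (r = 0.988), and *Pde4dip* came next (r = 0.975).

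*Sox9*, a transcription factor of crypt and gland progenitor cells, lies on the same chromosome (112782210 to 112787757) and had the widest log2 range of the 7 genes among control libraries and among *Nf2*-KO libraries. The control libraries were at 15.9, 52.7 and 89.3 CPM, a 5.61-fold range that was wider than that of 93.0% of genes tested. *Nf2*-KO was at 12.8, 18.2 and 26.6 CPM, the *Rasa1*-KO-labelled libraries at 14.5, 22.9 and 23.5, and the double-KO-labelled ones at 35.9, 36.6 and 39.8. Each group overlapped the control range or lay inside it, since the lowest control library was among the low values of the 2 groups with low *Nf2*. *Sox9* fell by 1.45 in *Nf2*-KO (SE 0.48, edgeR adjusted p = 0.029) and by 1.37 in the *Rasa1*-KO-labelled libraries (SE 0.48, adjusted p = 0.038). Both calls were lost when the control library at 89.3 CPM was left out, where the differences were -0.86 and -0.77, and leaving out 1 library of 6 at a time ended the call in 4 fits for *Nf2*-KO and in 5 for the *Rasa1*-KO-labelled libraries. In the double-KO-labelled libraries the difference was -0.49 (95% interval -1.51 to 0.54), which became -0.92 and called without the control library at 15.9 CPM and 0.13 without the one at 89.3 CPM. *Ubqln2* (r = 0.990) and *Arsb* (r = 0.988) followed *Sox9* most closely. Of 10 other Sox genes tested, 1 fell in *Nf2*-KO, *Sox13* (by 0.68, SE 0.20, adjusted p = 0.017), and none was called in the *Rasa1*-KO-labelled libraries. Among all genes tested, 42.5% and 41.7% were called in these comparisons.

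*Cd44* (chromosome 2, 102811141 to 102901669), a cell-surface receptor for hyaluronan, had the highest level of the 7 genes per length in control, at 102 ± 47.5 FPKM (SD, n = 3). By library it was at 262, 507 and 666 CPM in control, at 145, 168 and 203 in *Nf2*-KO, at 134, 161 and 178 in the *Rasa1*-KO-labelled libraries, and at 367, 401 and 419 in the double-KO-labelled ones. The first 2 knockout groups lay below all other libraries. *Cd44* fell by 1.48 in *Nf2*-KO (SE 0.27, edgeR adjusted p = 0.0011) and by 1.60 in the *Rasa1*-KO-labelled libraries (SE 0.27, adjusted p = 0.00076). The 2 groups differed from each other by 0.13 (95% interval -0.46 to 0.71). In the double-KO-labelled libraries the difference from control was -0.27 (95% interval -0.86 to 0.31), and without the control library whose table has no number it was -0.56 and called. The counts cover the gene as a whole, with 11 transcripts listed, and do not separate its splice variants. *Mid1* and *Etv6* followed *Cd44* most closely (both r = 0.993).

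Genes that work with *Cd44* moved in both directions. Of 12 tested genes for hyaluronan synthesis and breakdown, splicing of *Cd44* and its link to the cell cortex, 3 rose and 6 fell in *Nf2*-KO, where 20.4% of all genes rose and 22.1% fell (median log2 difference -0.43, beside -0.07 for all genes tested). The hyaluronan synthases went opposite ways. *Has2* rose from 1.25 ± 0.82 FPKM in control to 24.3 ± 1.55 in *Nf2*-KO (SD, n = 3 each; log2 fold change 4.38, SE 0.58, edgeR adjusted p = 0.00010). *Has1* fell by 2.53 (SE 0.46, adjusted p = 0.0010) and *Has3* by 2.22 (SE 0.30, adjusted p = 0.00012), both under 1 FPKM in control. In the *Rasa1*-KO-labelled libraries 4 of the 12 rose and 5 fell, where 19.6% of all genes rose and 22.1% fell, and *Has2* was at 11.7 ± 0.50 FPKM. In the double-KO-labelled ones 3 rose and none fell, where 3.98% of all genes rose and 2.42% fell.

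In *Nf2*-KO and the *Rasa1*-KO-labelled libraries *Olfm4* and *Aqp5* changed most of the 7 genes and in opposite directions, so the 250 bases before their annotated start sites are shown, from RefSeq on GRCm38.p6, with each CG pair in capitals.
*Olfm4* promoter, chr14:80000052-80000301, plus strand: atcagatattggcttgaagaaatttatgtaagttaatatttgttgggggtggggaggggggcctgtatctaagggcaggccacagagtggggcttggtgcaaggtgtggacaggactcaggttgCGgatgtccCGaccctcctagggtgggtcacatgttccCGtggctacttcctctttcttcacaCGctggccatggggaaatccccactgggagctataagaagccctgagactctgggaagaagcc
*Aqp5* promoter, chr15:99590778-99591027, plus strand: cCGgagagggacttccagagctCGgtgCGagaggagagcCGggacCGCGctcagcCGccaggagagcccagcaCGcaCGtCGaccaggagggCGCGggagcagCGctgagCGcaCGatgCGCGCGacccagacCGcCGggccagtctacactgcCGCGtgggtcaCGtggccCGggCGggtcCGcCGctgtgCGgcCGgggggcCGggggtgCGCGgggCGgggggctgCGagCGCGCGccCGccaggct
The *Olfm4* stretch held 4 CG pairs and the *Aqp5* stretch 38, where the median of 32851 promoter windows was 6. Windows of 300 bases, which go 50 bases past the start site, were found for 5 of the 7 genes (*Cd44*, *Lrig1*, *Axin2*, *Olfm4* and *Aqp5*). The *Axin2* window lies inside the gene span given above, with its 250 bases before the start site at 108920099 to 108920348. It does not cover the first base of that span. None of the 5 held a TCF/LEF motif on either strand, spelled CTTTGAA or with its last pair of letters as AT, TA or TT, and 16.9% of all windows did. The TEAD motif GGAATG was in none of the 5 and in 14.7% of all windows. The AP-1 motif TGANTCA was in none of the 5 and in 7.81% of all windows. This says only that these letters are not in the windows.

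*Olfm4* (chromosome 14, 80000302 to 80023141) encodes olfactomedin 4, a secreted glycoprotein of crypt base stem cells in human intestine and of gland cells in other mucosae. Its reads nearly vanished in 2 groups. It had 855 to 934 counts per library in control, 4 to 8 in *Nf2*-KO, 4 to 20 in the *Rasa1*-KO-labelled libraries and 157 to 252 in the double-KO-labelled ones. As CPM these were 9.74, 12.7 and 17.0 in control, 0.046, 0.058 and 0.094 in *Nf2*-KO, 0.051, 0.11 and 0.25 in the *Rasa1*-KO-labelled libraries, and 2.1, 2.76 and 2.84 in the double-KO-labelled ones. No group with a knockout overlapped control, and the double-KO-labelled libraries lay between control and the other 2 groups.

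The mean of *Olfm4* was 199-fold lower in *Nf2*-KO and 95.7-fold lower in the *Rasa1*-KO-labelled libraries than in control. In *Nf2*-KO its fitted log2 difference was -7.61 (SE 0.48, edgeR adjusted p = 4.5e-07). On the same scale it fell by 6.56 in the *Rasa1*-KO-labelled libraries (SE 0.45, edgeR adjusted p = 1.2e-06). It fell by 2.36 in the double-KO-labelled libraries (SE 0.35, adjusted p = 0.0025), and with only the groups compared in the fit the adjusted p was 0.0502. *Nf2*-KO and the *Rasa1*-KO-labelled libraries overlapped and were not called different (-1.05, 95% interval -2.24 to 0.14). *Tfcp2l1*, a transcription factor, followed *Olfm4* most closely (r = 0.989), with a mean of 17.7 FPKM in control that compares with 1.70 in *Nf2*-KO, 2.02 in the *Rasa1*-KO-labelled libraries and 8.54 in the double-KO-labelled ones. *Arhgap44* came next (r = 0.988). Of 3 other olfactomedin genes tested, *Olfml3* and *Olfml2b* rose in *Nf2*-KO (2.40, SE 0.46, adjusted p = 0.0015, and 0.93, SE 0.10, adjusted p = 2.1e-05), where 20.4% of all genes rose.

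*Aqp5* (chromosome 15, 99591028 to 99594829) encodes a water channel of secretory cells that also marks stem cells of the pyloric glands. It was at 1.85, 2.16 and 3.29 CPM in control, at 20.8, 21.2 and 25.4 in *Nf2*-KO, at 28.1, 31.7 and 32.4 in the *Rasa1*-KO-labelled libraries, and at 2.27, 2.70 and 4.26 in the double-KO-labelled ones. Every *Nf2*-KO library and every *Rasa1*-KO-labelled library lay above all others, and the double-KO-labelled libraries overlapped control. The mean was 9.23-fold higher than control in *Nf2*-KO and 12.6-fold higher in the *Rasa1*-KO-labelled libraries.

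In *Nf2*-KO the log2 level of *Aqp5* rose by 3.20 (SE 0.26, edgeR adjusted p = 2.8e-06) and by 3.65 in the *Rasa1*-KO-labelled libraries (SE 0.27, adjusted p = 1.9e-06). These 2 groups did not overlap each other, but the difference between them (-0.45, 95% interval -0.97 to 0.06) was not called. In the double-KO-labelled libraries the difference from control was 0.34 (95% interval -0.21 to 0.88). *Grina* (r = 0.992) and 5031439G07Rik (r = 0.991) followed *Aqp5* most closely. Of 5 other aquaporin genes tested, all at about 1 FPKM or less among those called, *Aqp9* rose (1.89, SE 0.22, adjusted p = 4.1e-05) and *Aqp7* fell (by 1.81, SE 0.33, adjusted p = 0.0010) in *Nf2*-KO. Among all genes, 20.4% rose and 22.1% fell there.

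*Lrig1* (chromosome 6, 94604529 to 94700298), a transmembrane protein that lowers the level of EGF receptor family members, was not called in any comparison. It was at 145, 173 and 222 CPM in control, at 185, 192 and 201 in *Nf2*-KO, at 156, 162 and 162 in the *Rasa1*-KO-labelled libraries, and at 160, 163 and 212 in the double-KO-labelled ones. All 3 groups overlapped control. The log2 differences from control were 0.10 (95% interval -0.23 to 0.43) in *Nf2*-KO, -0.17 (-0.50 to 0.16) in the *Rasa1*-KO-labelled libraries, and -0.01 (-0.35 to 0.32) in the double-KO-labelled ones. These intervals leave room for changes of up to about 0.5 on the log2 scale, and without both libraries whose tables carry no number the difference in *Nf2*-KO was 0.28 and called (adjusted p = 0.0079). *Vasn* (r = 0.972) and *Ttf1* (r = 0.969) followed *Lrig1* most closely. Of 6 tested genes for EGF receptors, *Met* and other Lrig proteins, 3 fell and none rose in *Nf2*-KO, where 22.1% of all genes fell and 20.4% rose. *Erbb2* was lowest (-0.82, SE 0.12, edgeR adjusted p = 0.00017), and *Egfr* differed by 0.36 (SE 0.26, adjusted p = 0.27).

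**Figure D3:**
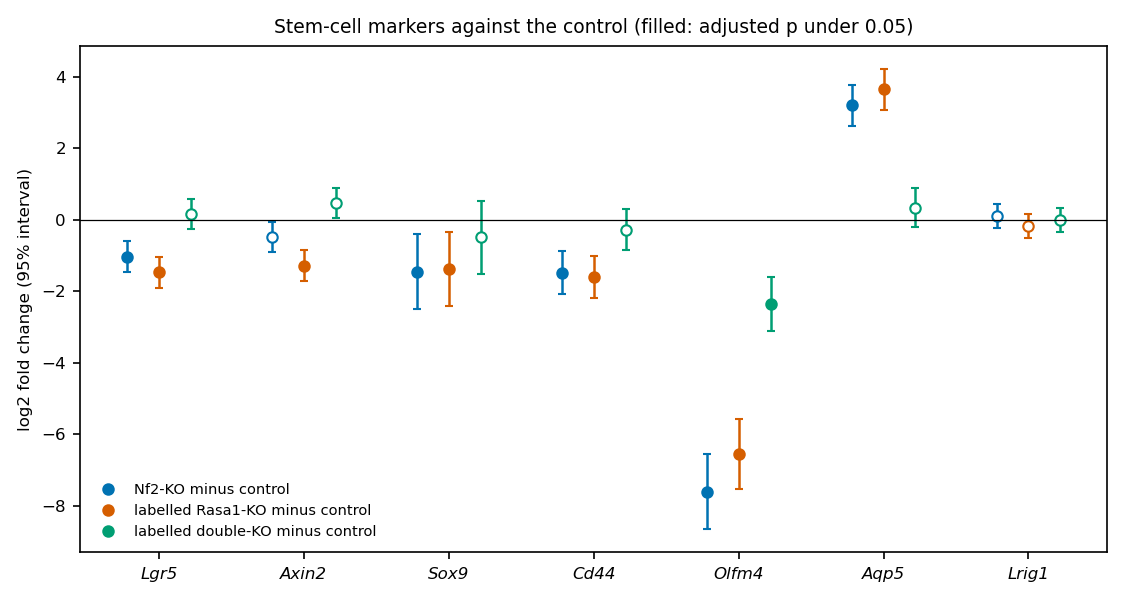
Log2 fold change of the 7 genes against control with its 95% interval, for *Nf2*-KO, the *Rasa1*-KO-labelled libraries and the double-KO-labelled libraries, with filled points at an adjusted p under 0.05. *Olfm4* lies below 0 in all 3, *Aqp5* above 0 with intervals clear of it in the first 2, and the intervals of *Lrig1* span 0 in all 3.

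Compared with each other, the double-KO-labelled libraries and the *Rasa1*-KO-labelled ones differed in 5 of the 7 genes, where 30% of all genes tested were called. *Olfm4* (4.21, SE 0.42, edgeR adjusted p = 4.1e-05), *Axin2* (1.75, SE 0.20, adjusted p = 9.5e-05), *Lgr5* (1.64, SE 0.20, adjusted p = 0.00013) and *Cd44* (1.33, SE 0.27, adjusted p = 0.0037) were higher in the double-KO-labelled libraries, beside 16.1% of all genes. *Aqp5* was lower there (-3.32, SE 0.26, adjusted p = 7.2e-06), beside 13.9% of all genes. *Sox9* was 0.88 higher in the double-KO-labelled libraries (95% interval -0.15 to 1.91), which was not called. Under the names of the deposited tables, the same values read as 4 genes lower and 1 higher in double-KO than in *Rasa1*-KO. *Nf2*-KO and the double-KO-labelled libraries also differed in 5 of 7 genes, where 32% of all genes were called, with *Aqp5* higher (beside 15.2% of all genes) and the other 4 (*Lgr5*, *Axin2*, *Cd44* and *Olfm4*) lower in *Nf2*-KO (beside 16.8%).

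The last contrast asked whether the combined knockout differed from the sum of the single knockouts on the log2 scale. By the labels 6 of the 7 genes departed from the sum, all but *Lrig1*, where 52.1% of all genes did. *Nf2* itself departed by 4.41 (SE 0.13, edgeR adjusted p = 8.6e-10), with its mRNA at the control level in the double-KO-labelled libraries. By the labels the contrast therefore does not describe libraries low in both targeted genes. With both labels exchanged, as the table names have it, *Axin2* and *Olfm4* departed, 2 of 7 genes where 6.32% of all genes did. *Olfm4* was then 3.40 above the sum on the log2 scale (SE 0.64, edgeR adjusted p = 0.0093), and *Axin2* was 1.26 below it (-1.26, SE 0.28, adjusted p = 0.019). *Olfm4* had only 4 to 20 counts per library in the groups where it was lowest, which left little room to fall further. With both labels exchanged, its departure cannot be told apart from this floor. By the labels, the double-KO-labelled libraries held 157 to 252 counts, above both other knockout groups.

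The order of the 7 genes per length changed with the groups. In control and in the double-KO-labelled libraries, *Cd44*, *Lrig1* and *Sox9* were the highest, at 102, 34.1 and 12.5 FPKM and at 76.8, 31.5 and 8.01 FPKM. In *Nf2*-KO *Lrig1* (35.4 ± 1.41 FPKM, SD, n = 3) and *Cd44* (35.1 ± 6.08) stood level, followed by *Aqp5* (13.3 ± 1.28). In control *Aqp5* was the lowest of the 7, at 1.50 ± 0.47 FPKM, and *Olfm4*, *Axin2* and *Lgr5* lay close together at 4.62 ± 1.51, 4.51 ± 1.22 and 4.46 ± 1.54. *Olfm4* was the lowest in *Nf2*-KO (0.020 FPKM) and in the *Rasa1*-KO-labelled libraries (0.042 FPKM).

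The receptors and turnover factors of the Wnt pathway act at the cell surface with *Lgr5*. Of 10 listed genes 7 were tested, and in *Nf2*-KO 4 fell, where 22.1% of all genes did, and none rose (median log2 difference -0.53, beside -0.07 for all genes tested): *Lgr4*, the relative of *Lgr5* with the broadest expression (-0.70, SE 0.08, edgeR adjusted p = 3.2e-05), the ubiquitin ligases *Rnf43* (-0.68, SE 0.12, adjusted p = 0.00091) and *Znrf3* (-0.67, SE 0.23, adjusted p = 0.032), and the co-receptor *Lrp6* (-0.53, SE 0.15, adjusted p = 0.013). *Lgr4* was at 23.9 ± 1.19 FPKM in control and 14.1 ± 0.90 in *Nf2*-KO (SD, n = 3 each), well above *Lgr5*. In the *Rasa1*-KO-labelled libraries 5 of the 7 fell, where 22.1% of all genes fell and 19.6% rose. *Lgr6*, the remaining *Lgr5* relative, rose there (1.74, SE 0.39, adjusted p = 0.0044), from 0.47 ± 0.25 to 1.62 ± 0.15 FPKM. In the double-KO-labelled libraries *Rspo3*, which encodes an R-spondin, rose (0.85, SE 0.23, adjusted p = 0.049) and none fell, where 3.98% of all genes rose and 2.42% fell.

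Other Wnt target genes moved in both directions. Of 14 tested, which include *Rnf43* and *Znrf3*, 2 rose and 4 fell in *Nf2*-KO (median log2 difference -0.35), where 20.4% of all genes rose and 22.1% fell. In the *Rasa1*-KO-labelled libraries 4 rose and 4 fell (median -0.17, beside -0.08 for all genes), where 19.6% of all genes rose and 22.1% fell. *Apcdd1*, a Wnt inhibitor, rose in *Nf2*-KO (1.92, SE 0.16, edgeR adjusted p = 3.0e-06), as did cyclin D1, *Ccnd1* (1.16, SE 0.13, adjusted p = 2.5e-05), from 32.4 ± 4.47 to 69.2 ± 1.64 FPKM. *Bambi*, a pseudoreceptor for TGF-β ligands, fell (-0.98, SE 0.19, adjusted p = 0.0018). Without both libraries whose tables carry no number, a choice made after seeing the data, 5 of the 14 rose and 6 fell in *Nf2*-KO. In that fit 66.8% of all genes were called. Of 9 genes for the β-catenin destruction complex and β-catenin itself, 1 rose and 2 fell in *Nf2*-KO, where 20.4% of all genes rose and 22.1% fell. *Ctnnb1* for β-catenin was among those that fell (-0.56, SE 0.13, adjusted p = 0.0048).

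**Figure D4:**
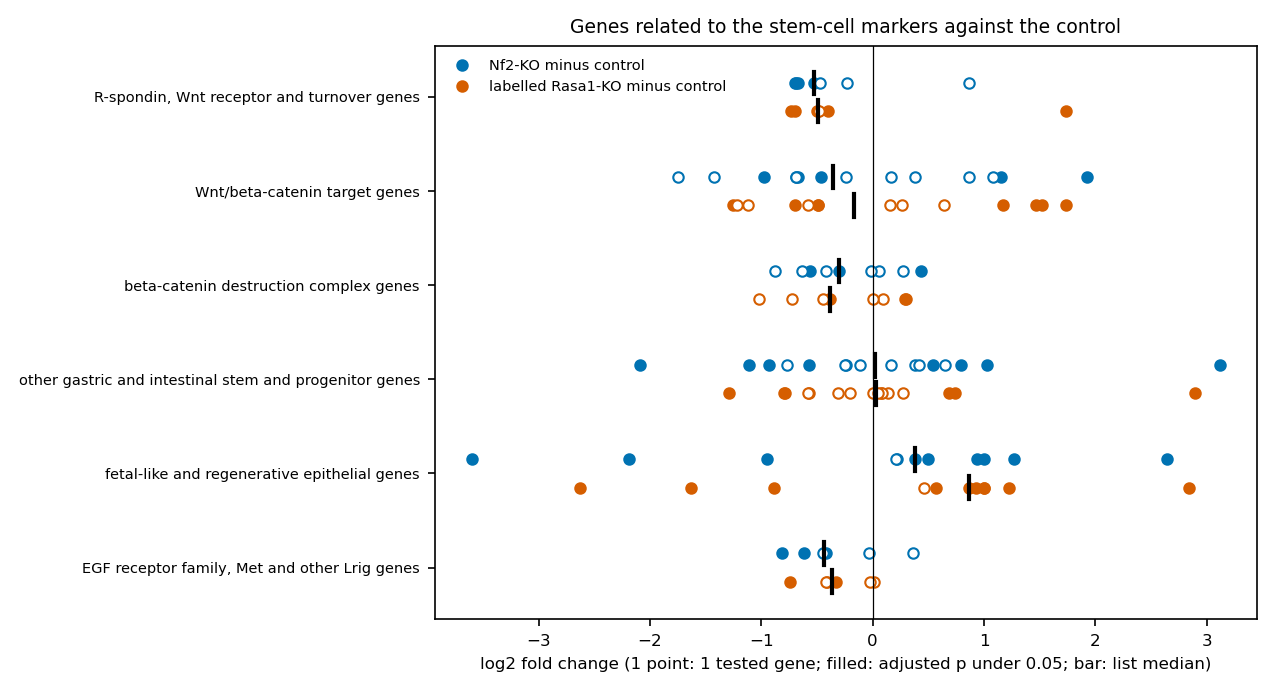
Log2 fold change of each tested gene of 6 lists related to the 7 genes, for *Nf2*-KO and for the *Rasa1*-KO-labelled libraries against control. Filled points have an adjusted p under 0.05 and bars are list medians. Wnt receptor and turnover genes lie mostly below 0 in *Nf2*-KO (median -0.53), and the stem and progenitor genes spread on both sides (median 0.03).

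Other stem and progenitor genes were called about as often as all genes tested in *Nf2*-KO. Of 16 tested, 4 rose and 4 fell (median log2 difference 0.03), where 20.4% of all genes rose and 22.1% fell. In the *Rasa1*-KO-labelled libraries 3 rose and 4 fell, where 19.6% of all genes rose and 22.1% fell. *Prom1*, which encodes CD133, fell most in *Nf2*-KO (-2.09, SE 0.10, edgeR adjusted p = 3.9e-08), from 186 ± 4.13 to 41.8 ± 2.45 FPKM. *Hopx*, a marker of slow-cycling cells, rose (3.12, SE 0.42, adjusted p = 0.00013), from 0.77 ± 0.47 to 6.67 ± 0.81 FPKM. Of 11 genes of fetal-like and regenerating epithelium, 6 rose and 3 fell in *Nf2*-KO (median 0.38), beside the same shares of all genes. The EGF receptor ligand *Areg* rose (2.64, SE 0.17, adjusted p = 4.3e-07), whereas *Clu* fell from 2691 ± 269 to 213 ± 5.31 FPKM (-3.60, SE 0.14, adjusted p = 1.4e-08).

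Markers of other cell types moved with these groups. Of 6 fibroblast markers tested (8 listed), 5 rose and 1, *Dcn*, fell in *Nf2*-KO (median log2 difference 4.10). The counts were the same in the *Rasa1*-KO-labelled libraries (median 2.46). Among all genes, 20.4% rose and 22.1% fell in *Nf2*-KO, and 19.6% rose and 22.1% fell in the *Rasa1*-KO-labelled libraries. *Lum* and *Thy1* were listed but not among the genes deposited, which include none with a count of 0 in any library. The summed level of the 6 markers was 22.2 to 184 FPKM in control, 1157 to 1236 in *Nf2*-KO, 397 to 427 in the *Rasa1*-KO-labelled libraries and 22.7 to 48.6 in the double-KO-labelled ones. *Col3a1* made up most of it in *Nf2*-KO (1085 ± 51.6 FPKM, SD, n = 3) and in the *Rasa1*-KO-labelled libraries (372 ± 12.97), whereas the control libraries ranged from 6.31 to 140.0 FPKM for *Col3a1* and from 15.4 to 41.2 for *Dcn*. Of 7 epithelial markers 1 rose and 2 fell in *Nf2*-KO, where 20.4% of all genes rose and 22.1% fell. Without both libraries whose tables carry no number, 4 rose and 2 fell, where 66.8% of all genes were called. In the *Rasa1*-KO-labelled libraries 4 rose (*Cldn3*, *Krt18*, *Krt19* and *Krt8*, by 0.64 to 0.89) and 2 fell, where 19.6% of all genes rose and 22.1% fell. *Epcam* was at 29.9 ± 2.05 FPKM in control and 4.62 ± 0.24 in *Nf2*-KO (log2 fold change -2.63, SE 0.19, edgeR adjusted p = 1.2e-06), and *Cdh1* fell too (-2.09, SE 0.17, adjusted p = 2.5e-06), whereas the keratin *Krt8* was at 839.8 FPKM or more in every library. Endothelial markers summed to 0.466 FPKM or less in every library, and the immune marker *Ptprc* was below 0.1 FPKM, though *Cd68* rose in *Nf2*-KO (1.02, SE 0.27, adjusted p = 0.0095). Of 15 symbols listed for differentiated gastric cells 4 were in the tables, and they moved in both directions. The mucin *Muc5ac* fell from 0.55 ± 0.19 to 0.023 ± 0.015 FPKM in *Nf2*-KO (-4.47, SE 0.45, adjusted p = 1.4e-05). *Atp4a* fell there too (-1.04, SE 0.22, adjusted p = 0.0030), whereas *Tff1*, at 0.95 ± 0.65 FPKM in control and 2.09 ± 0.72 in *Nf2*-KO, was not called. In the *Rasa1*-KO-labelled libraries *Tff1* rose to 4.02 ± 0.30 FPKM (2.25, SE 0.66, adjusted p = 0.018) and *Muc5ac* fell (-3.965, SE 0.44, adjusted p = 4.0e-05). The part of these cell type markers in the changes of the 7 genes was not tested.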

How the data were processed

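Total RNA libraries of 12 S1 samples were grouped by their labels. Per the submitters' notes and methods, the authors used Trimmomatic 0.38 for trimming, HISAT2 2.1.0 for alignment (mm10) and SAMtools 1.9, and deposited raw read counts, FPKM, TPM and log2 values per gene from StringTie 2.1.3b. The deposited FPKM are per transcript length and mapped reads. TPM and log2 columns were not used. Whether counting used strand is not given in the sources used here. Genes with a count of 0 in any library are not in the tables (lowest count 1). Totals were 43818139 to 96674463 counts per library. Counts were tested in R 4.3.3 with edgeR 4.0.16 (filterByExpr, TMM, 1 quasi-likelihood fit over 4 groups), with Benjamini-Hochberg adjustment over 18053 genes. Alternatives used DESeq2 1.42.0 and limma 3.58.1. The code was tested on simulated data. Deviations from the group means of control and double-KO-labelled libraries with the same number in their table names correlated in all 3 pairs (r = 0.626, 0.313 and 0.444, the first with no number). Over all groups, pairs with different numbers ran from -0.56 to 0.399, which is below 0.626 and 0.444. Pairs with different numbers in these 2 groups alone were not set apart, so a pairing is not established. A block by these numbers was an alternative.

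The 7 genes and the lists were chosen with earlier results of these data known. Named from each list are up to 4 genes with the largest change among those called in the comparison described, and for each of the 7 genes the 2 with the highest Pearson correlation of log2 CPM (prior count 2). *Egfr*, *Krt8*, *Ptprc*, *Ctnnb1* and *Cd68* are named as defining members of their lists. Positions and promoters are from RefSeq tables of GRCm38.p6 (18878 of 18926 genes matched).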

Additional observations from a re-analysis of the deposited data

Results flagged for a closer look

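The combined knockout was set against the sum of the single knockouts on the log2 scale (double-KO minus *Rasa1*-KO minus *Nf2*-KO plus control, edgeR adjusted over 18053 genes). By the labels, 6 of the 7 genes departed from the sum: *Aqp5* by -6.52, *Axin2* by 2.23, *Cd44* by 2.81, *Lgr5* by 2.66, *Sox9* by 2.33 and *Olfm4* by 11.81, with adjusted p-values from 8.4e-08 to 0.012, where 52.1% of all genes did. *Lrig1* was at 0.06 (95% interval -0.41 to 0.53). *Nf2* itself departed by 4.41 (SE 0.13, edgeR adjusted p = 8.6e-10), with its mRNA at the control level in the double-KO-labelled libraries. By the labels the contrast therefore does not describe libraries low in both targeted genes.

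With the 2 labels exchanged, as in the table names, 2 genes departed, where 6.32% of all genes did: *Axin2* by -1.26 (SE 0.28, adjusted p = 0.019) and *Olfm4* by 3.40 (SE 0.64, adjusted p = 0.0093). By the labels, the double-KO-labelled libraries held 157 to 252 *Olfm4* counts, above both other knockout groups. With the exchange, the departure of *Olfm4* cannot be told apart from its floor of 4 to 20 counts per library. *Aqp5* was then at 0.11 (95% interval -0.64 to 0.87) and *Cd44* at 0.15 (-0.68 to 0.97). Which assignment is right was not tested beyond the mRNA of both targeted genes.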

How the results depend on the processing

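Of 280 refits of single fold changes with other normalization, tools, filters, samples or units, 258 kept their direction and their side of the threshold. By the calling rule of the study (3-fold or more, unadjusted p under 0.05), 2 genes were called in *Nf2*-KO and 3 in the *Rasa1*-KO-labelled libraries against control, since several calls are smaller than 3-fold. Among all genes, 11.4% and 9.26% were called by this rule. In the double-KO-labelled libraries, 0 genes were called with only the groups compared (edgeR), where 2 had an unadjusted p under 0.05 with all groups. The share of all genes called with only the groups compared was not counted. Without both libraries whose tables carry no number, 2 were called, where 29.8% of all genes were. *Sox9* lost its call against control in *Nf2*-KO with only the groups compared (-1.50) and with limma on log2(FPKM + 1) (-1.11) or log2(FPKM + 0.1) (-1.24). *Aqp5* in the double-KO-labelled libraries turned to -0.075 without both libraries. *Lrig1* turned sign without both libraries (0.011 in the *Rasa1*-KO-labelled libraries, 0.028 in the double-KO-labelled ones) and, in the latter, with DESeq2 (0.002) and without a filter (0.009). The cause was not tested.

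Numbers shared by the labels did not pair the libraries, since correlations of same-numbered deviations ran from -0.379 to 0.399. With the numbers in the table names as a replicate block, no call of the 7 genes changed. Against control, 53% of all genes were then called in *Nf2*-KO, 51.9% in the *Rasa1*-KO-labelled libraries and 13.8% in the double-KO-labelled ones. With the label number as a replicate block, 2.76% of all genes were called in the double-KO-labelled libraries, *Axin2* gained its call in *Nf2*-KO (-0.52), *Sox9* lost its call (-1.46, and -1.15 in the *Rasa1*-KO-labelled libraries), and *Lrig1* in the double-KO-labelled libraries was at 0.11.

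Leaving out 1 library at a time, 4 to 6 genes were called in *Nf2*-KO, 5 or 6 in the *Rasa1*-KO-labelled libraries, and 1 to 3 in the double-KO-labelled ones, the highest without the control library whose table has no number, where *Cd44* and *Sox9* joined *Olfm4*. Against control, *Lrig1* ranged from -0.043 to 0.282 in *Nf2*-KO, from -0.309 to 0.012 in the *Rasa1*-KO-labelled libraries and from -0.15 to 0.17 in the double-KO-labelled ones. In the latter, *Lgr5* ranged from -0.003 to 0.425, *Cd44* from -0.564 to 0.044 and *Sox9* from -0.92 to 0.13. *Sox9* ranged from -1.88 to -0.86 in *Nf2*-KO. Depth limits *Olfm4*, which rests on 4 to 20 counts per library in the 2 groups where it is lowest, and its size depends on the scale (-2.43 to -7.94 in *Nf2*-KO, the former with log2(FPKM + 1)).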

Other observations

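The genes next to each of the 7 on their chromosomes were looked up after the values had been seen, taking the nearest 2 tested genes on each side. The values below are for *Nf2*-KO against control, where 42.5% of all genes tested were called. Near *Aqp5*, *Racgap1*, a regulator of cytokinesis (start sites 29.5 kb apart), was 1.39 higher in *Nf2*-KO than in control (SE 0.10, edgeR adjusted p = 1.2e-06), *Asic1* (79.2 kb) was 2.29 higher (SE 0.53, adjusted p = 0.0047), Gm34765 (15.4 kb) was 1.76 higher (SE 0.49, adjusted p = 0.013) and *Faim2* differed by 0.05 (SE 0.57). Near *Cd44*, the glutamate transporter *Slc1a2* (152.9 kb) was lower by 4.19 (log2 fold change -4.19, SE 0.28, adjusted p = 6.8e-07), a larger difference than that of *Cd44*, while *Pdhx* and *Apip* on the other side differed by -0.25 and -0.57 and were not called. Near *Lgr5*, *Tspan8* (366.5 kb), itself on the list of stem and progenitor genes, fell by 1.11 (SE 0.25, adjusted p = 0.0040), and *Zfc3h1* (65.5 kb) by 0.33 (log2 difference -0.33, SE 0.10, adjusted p = 0.020), while Gm8960 (148.7 kb) differed by 0.61 and *Thap2* (81.9 kb) by -0.41, neither of them called. Near *Axin2*, *Rgs9* (307.5 kb) was 2.09 higher (SE 0.41, adjusted p = 0.0019). Gm11696 (437.0 kb) differed by -0.97 (SE 0.33, adjusted p = 0.036), and the neighbours on the other side were not called. Near *Olfm4*, *Elf1*, *Sugt1* and Gm32498 differed by -0.09, 0.28 and 0.15 and were not called. *Pcdh17* (4443.3 kb) was 1.31 higher (SE 0.46, adjusted p = 0.038). The neighbours of *Sox9* and *Lrig1* are not given here.

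Of 5 tested genes for differentiated intestinal cells, *Cdx2*, a transcription factor of intestinal identity, rose in *Nf2*-KO from 7.03 ± 1.19 to 21.6 ± 0.94 FPKM (SD, n = 3 each; log2 fold change 1.67, SE 0.15, edgeR adjusted p = 4.8e-06). *Dclk1*, a tuft cell marker, rose by 2.00 (SE 0.42, adjusted p = 0.0027), and *Vil1*, a brush border protein, fell by 1.52 (SE 0.11, adjusted p = 1.1e-06). Among all genes, 20.4% rose and 22.1% fell in *Nf2*-KO.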
